A study of Mus musculus with 27 samples.

Results

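The desmosomal cadherins and desmoplakin are 10 mouse genes, Dsg1a, Dsg1b, Dsg1c, Dsg2, Dsg3, Dsg4, Dsc1, Dsc2, Dsc3 and Dsp, chosen by symbol from the 51906 genes of the RNA-seq table, and each of the 10 was found. They were followed in 3 settings. Lines were started on feeder cells. The first was RNA-seq of 3D cultures of hair follicle stem cells (HFSCs) isolated from resting (telogen) skin at postnatal day 55. HFSCs were wild-type or labelled Rxra cKO, from mice with floxed Rxra, the gene of a nuclear receptor that pairs with retinoic acid receptors, with Cre-ER driven by Sox9 and a Rosa26 YFP reporter. They were grown in fetal bovine serum (FBS) or in atRA+PKCi, a medium in which B-27 replaced serum and to which all-trans retinoic acid and the protein kinase C inhibitor Go6976 were added. Each of the 4 groups held 2 libraries from 2 mice, and the same mouse supplied both media. The second setting was 10x Genomics single cell RNA-seq of wild-type cultured HFSCs of 2 mice, pooled over 7 hashtagged media. The third was 10x Genomics single cell RNA-seq of growing-phase (AnaVI) skin from 2 mice at postnatal day 32, and per the study's methods the HFSCs of the second setting came from such mice. Serum was removed together with the addition of atRA+PKCi, so the parts of these changes cannot be told apart, and p-values over 2 mice per group measure the spread between these cultures only.

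Desmosomes are plaques that rivet neighbouring epithelial cells together and anchor keratin filaments. Desmogleins (Dsg) and desmocollins (Dsc) are cadherins whose outer domains bind those of the next cell, plakoglobin and plakophilins hold their tails, and desmoplakin (Dsp) links the plaque to keratin. In stratified skin, isoform 3 of both cadherin families is known for basal cells and isoform 1 for differentiating layers, while Dsg4 is known from the hair shaft.

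Only Dsp among the members was matched to a RefSeq promoter (GRCm38.p6). It is shown with that of Jup, the plakoglobin gene whose product sits between the cadherin tails and desmoplakin, because both genes are measured below under a retinoid medium. The 250 bases upstream of each start are printed 5′ to 3′ on the gene's strand, Dsp from chr13:38151044-38151293 (plus) and Jup from chr11:100397791-100398040 (minus). Capitals mark GGGCGG on either strand, a GC box.
Dsp: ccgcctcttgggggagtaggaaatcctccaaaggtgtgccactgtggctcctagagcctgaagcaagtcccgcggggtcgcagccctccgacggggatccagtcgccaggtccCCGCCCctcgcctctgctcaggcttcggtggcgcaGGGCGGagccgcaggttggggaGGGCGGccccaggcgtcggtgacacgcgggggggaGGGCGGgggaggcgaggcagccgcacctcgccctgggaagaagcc
Jup: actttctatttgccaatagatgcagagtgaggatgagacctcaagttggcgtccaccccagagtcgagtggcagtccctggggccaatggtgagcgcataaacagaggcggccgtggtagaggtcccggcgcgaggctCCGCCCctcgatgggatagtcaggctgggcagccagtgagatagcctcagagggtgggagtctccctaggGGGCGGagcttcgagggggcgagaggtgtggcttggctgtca

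The Dsp window held 4 GGGCGG matches and the Jup window 2, and 32.7% of 32851 promoter windows of that length held at least 1. The motif AGGTCA, the half-site known for retinoid receptors, was searched on both strands and was found in 14.0% of all windows and in neither of these. AACCNGTT, a Grainyhead-type motif, was found in 1.79% of all windows and in neither of these. A match is a description of letters and not of binding, and a window of 250 bases does not show more distant elements.

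In the annotation (GRCm38), the 3 desmocollin genes lie on the minus strand of chromosome 18, Dsc3 from 19960930 to 20002351, Dsc2 from 20030633 to 20059554 and Dsc1 from 20084184 to 20114871. The 6 desmoglein genes follow on the plus strand, in the order Dsg1c (20247340 to 20285031), Dsg1a (20310811 to 20343350), Dsg1b (20376729 to 20410196), Dsg4 (20436175 to 20471821), Dsg3 (20510274 to 20547459) and Dsg2 (20558074 to 20604521). All values below are per gene, and exonic length in the RNA-seq values counts all annotated exons.

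The 8 RNA-seq libraries held 25150265 to 35879777 estimated counts. Levels are given as CPM, a gene's share of all counts of its library, scaled by TMM, and 15965 genes, all 10 members included, passed the filter on low counts. The targeted gene, Rxra, stood at 97.2 and 95.7 CPM in the libraries labelled Rxra cKO FBS against 149 and 122 in wild-type FBS, which is 1.41-fold lower. In atRA+PKCi it stood at 148 and 145 CPM in the libraries labelled Rxra cKO and at 147 and 143 in wild-type, so gene-level counts gave no difference there. Gene-level counts include exons outside a deletion and do not show whether it took place, so Rxra cKO below names the label. Markers of dermal fibroblasts, which could mark carried-over feeder cells, summed to between 1.32 and 11.6 CPM over the libraries. The suprabasal markers summed to between 2209 and 2452 CPM in wild-type FBS and to between 280 and 297 in wild-type atRA+PKCi. Companion layer markers summed to between 26482 and 26703 CPM in wild-type FBS and between 2148 and 2155 in wild-type atRA+PKCi. That list was Krt75, Krt6a, Krt6b, Krt16 and Krt17. The study treats KRT6 as a hallmark of hyperproliferative epidermis, so the sum need not stand for companion layer cells. Outer root sheath markers summed to between 32982.5 and 34403.5 CPM and between 15162.7 and 15285.6. Their list shares Krt14 and Krt5 with the upper follicle and basal epidermis list. The latter summed to between 35837 and 36589 CPM and between 21318 and 21409, so a sum does not single out a cell type. The part of these markers in the results below was not tested.

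Wild-type HFSCs held less of 8 of the 10 members in atRA+PKCi than in FBS, and more of 0. Of all genes tested, 26.6% were lower and 27.2% were higher (edgeR quasi-likelihood test, Benjamini-Hochberg adjusted p under 0.05). The median log2 fold change of the 10 members was -3.48, beside 0.034 over all genes tested. Dsc1, Dsc2, Dsg1a and Dsg1b fell the most, to between 1 and 51 counts per library, whereas Dsg3 and Dsc3 fell by far less. In these bulk cultures, fewer cells of a type and less RNA per cell cannot be told apart.

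**Figure D1:**
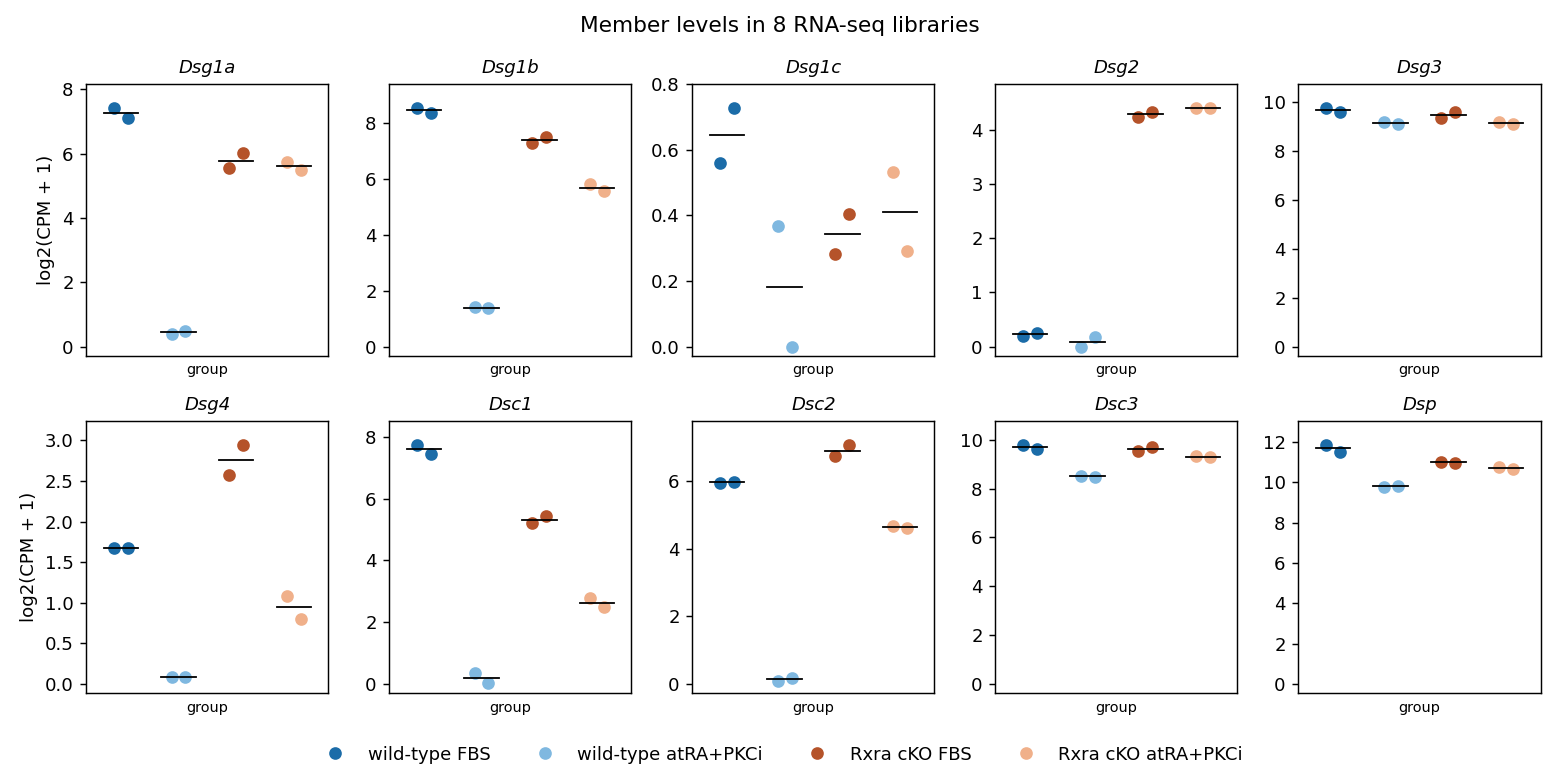
Levels of the 10 members in each RNA-seq library, as log2(CPM + 1) on a vertical axis of its own for each gene. Points are the 2 libraries of a group and bars their mean; Dsc1, Dsc2, Dsg1a and Dsg1b are lowest in wild-type atRA+PKCi, at 1.64 CPM or less.

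Dsc1, a desmocollin of upper layers, stood at 212 and 173 CPM in the wild-type FBS libraries and at 0.289 and 0.032 CPM in wild-type atRA+PKCi, where 9 and 1 counts were left. Its log2 fold change was -10.20 (SE 0.303, edgeR adjusted p = 3.18e-08). Dsc2 went from 61.4 and 62.2 CPM to 0.064 and 0.127 CPM, or from 1682 and 1611 counts to 2 and 4, with a log2 fold change of -9.27 (SE 0.233). The desmocollins of both libraries in atRA+PKCi were thus below every FBS library, with fold changes that rest on few counts in the lower group.

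Dsg1a went from 172 and 139 CPM to 0.321 and 0.412, and Dsg1b from 375 and 328 CPM to 1.64 and 1.62. The log2 fold changes were -8.71 (SE 0.283) for Dsg1a and -7.75 (SE 0.158) for Dsg1b. These are paralogs of the desmoglein 1 gene and share sequence: 38.0% of the 31-base words of Dsg1a transcripts and 54.9% of those of Dsg1b occur in the other, so the split of reads between them is uncertain. With the counts of Dsg1a, Dsg1b and Dsg1c summed, a step added after the values were seen, the log2 fold change was -7.89 (SE 0.180). Dsg1c, the third paralog, stayed between 0 and 0.657 CPM in all wild-type libraries and did not pass the test.

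Dsp stood at 3730 and 2909 CPM in wild-type FBS and at 886 and 904 CPM in wild-type atRA+PKCi, a 3.71-fold difference with no overlap (log2 fold change -1.89, SE 0.117, edgeR adjusted p = 2.10e-06). Dsc3 went from 886 and 785 CPM to 371 and 360 CPM, a 2.29-fold difference. Dsg3, the antigen best known from pemphigus vulgaris, went from 871 and 761 to 571 and 550 CPM, a 1.46-fold difference (SE 0.103 on the log2 scale). Dsg4 was rare throughout, at 2.19 and 2.20 CPM in FBS and 0.064 and 0.063 in atRA+PKCi. Dsg2, the desmoglein of simple epithelia and of the heart, held at most 5 counts in any wild-type library and was not called.

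In Rxra cKO HFSCs, 6 of the 10 members were lower in atRA+PKCi and 0 higher, beside 22.2% and 20.8% of all genes. The median of the members was -0.33. Dsc1 went from 36.2 and 41.7 CPM to 5.81 and 4.66 CPM (log2 fold change -2.88, SE 0.189) and Dsc2 from 107 and 135 CPM to 24.7 and 23.6 CPM (-2.32, SE 0.114). Both groups were apart, and the lower one still held 125 counts or more of either gene in each library. Dsg1b fell by 1.71, Dsg4 by 2.62, Dsg3 by 0.34 and Dsc3 by 0.32 on the log2 scale. Dsg1a overlapped between media, at 46.3 and 63.4 CPM in FBS and 52.6 and 43.6 in atRA+PKCi, although the 3 summed Dsg1 paralogs were lower (-1.16, SE 0.123). Dsp had 2068 and 2010 CPM in FBS and 1715 and 1625 in atRA+PKCi, and its log2 fold change of -0.29 did not pass the test (edgeR adjusted p = 0.0693), although DESeq2 called it (adjusted p = 0.0186). The calls of Dsg3 and Dsc3 were lost when Rxra cKO FBS replicate 2 or either Rxra cKO atRA+PKCi library was left out, with adjusted p from 0.0839 to 0.175. The summed suprabasal markers also differed, from 1427 to 1769 CPM in FBS and from 599 to 623 in atRA+PKCi, as did companion layer markers, from 13128 to 14864 CPM in FBS and from 6286 to 6684 in atRA+PKCi. Within the suprabasal list, Krtdap, Sbsn, Lor and Ivl fell, but 2 keratins rose. Krt1 went from 3.02 and 2.88 CPM in FBS to 43.4 and 33.5 in atRA+PKCi. Krt10 went from 8.59 and 8.36 CPM to 29.8 and 22.9. The part of either marker list in the result was not tested.

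The medium effect was compared between genotypes as an interaction, the wild-type effect minus the Rxra cKO effect. It was lower than 0 for 7 of the 10 members and higher for 0, beside 13.3% and 11.3% of all genes. Dsg1a had the interaction farthest from 0 (-8.52, SE 0.341), followed by Dsc1 (-7.32, SE 0.421), Dsc2 (-6.95, SE 0.311), Dsg1b (-6.04, SE 0.190), Dsg4 (-2.40, SE 0.534), Dsp (-1.60, SE 0.161) and Dsc3 (-0.87, SE 0.126). With the uncertain split of the Dsg1 paralogs removed by summing them, their interaction was -6.73 (SE 0.213), nearer to 0 than that of Dsc1 or Dsc2. The fall of these 7 was larger in wild-type than in Rxra cKO cultures. The interaction of Dsg3 was -0.20 (SE 0.146, edgeR adjusted p = 0.355), so no difference between genotypes was detected for it. The call of Dsg4 was lost without wild-type atRA+PKCi replicate 2 (adjusted p = 0.0598).

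**Figure D2:**
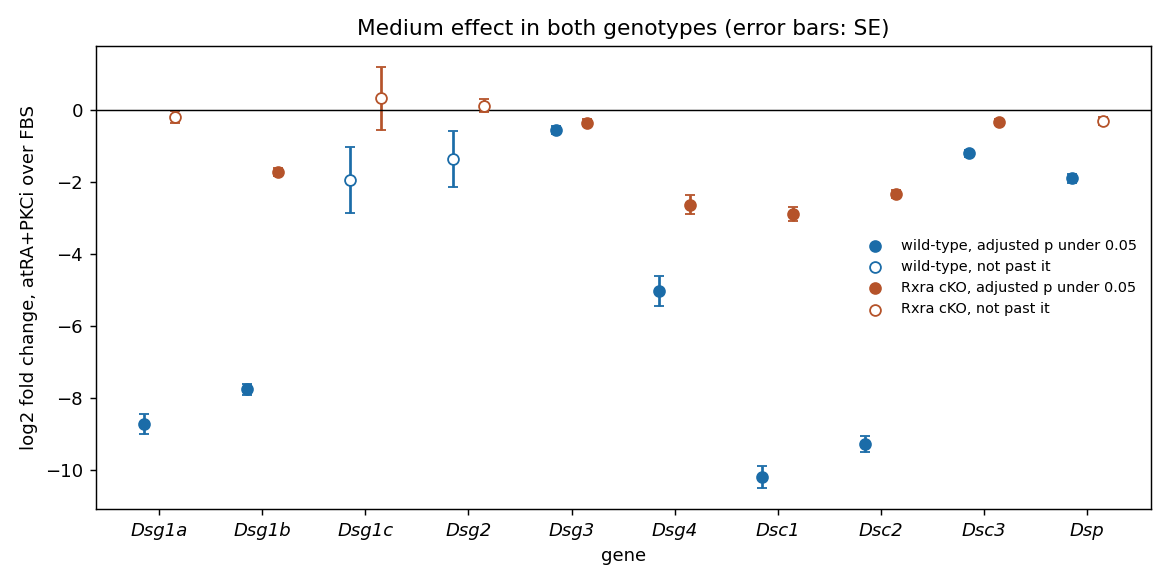
Log2 fold change of atRA+PKCi over FBS for each member in wild-type and Rxra cKO cultures, with SE bars. Filled points passed the adjusted p threshold; wild-type points of Dsc1, Dsc2, Dsg1a and Dsg1b lie between -10.20 and -7.75 and Rxra cKO points between -2.88 and -0.19.

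Between genotypes in FBS, 3 members were higher and 4 lower in Rxra cKO, beside 22.3% and 20.5% of all genes. Dsg2 was higher, at 17.9 and 19.2 CPM in Rxra cKO FBS against 0.146 and 0.193 CPM in wild-type FBS, or 498 and 594 counts against 4 and 5. Dsg4 (log2 fold change 1.41, SE 0.256) and Dsc2 (0.97, SE 0.108) were also higher. Dsc1 (-2.30), Dsg1a (-1.50), Dsg1b (-1.08) and Dsp (-0.70) were lower. In atRA+PKCi, 8 members were higher in Rxra cKO and 0 lower, beside 23.0% and 20.2% of all genes. Dsg2 again stood apart, at 20.4 CPM in both Rxra cKO libraries against 0 and 0.127 CPM in wild-type. Dsc2 (log2 difference 7.92), Dsg1a (7.02), Dsc1 (5.02), Dsg1b (4.96), Dsg4 (3.81), Dsp (0.90) and Dsc3 (0.80) were higher, and Dsg3 differed by 0.00074 (SE 0.103). The 4 comparisons share libraries and are not independent. Each genotype was 2 mice, so genotype and the lines of those mice cannot be told apart.

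Per kilobase of exonic length, Dsp was the most abundant member in all 4 groups. Its wild-type means were 344 ± 60.1 CPM per kilobase with serum and 92.7 ± 1.32 with atRA+PKCi (SD, n = 2), and its Rxra cKO means were 211 ± 4.25 and 173 ± 6.56. Dsc3 was the most abundant cadherin in 3 groups, at 155 ± 13.1, 147 ± 12.2 and 117 ± 4.01, but in wild-type atRA+PKCi Dsg3 (80.3 ± 2.15) stood above Dsc3 (67.6 ± 1.41). The makeup of each cadherin family was taken as shares of CPM per kilobase of exonic length. In wild-type FBS, Dsg3 made up 49.8% and 50.3% of the desmoglein pool and Dsg1b 37.8% and 38.1%. In wild-type atRA+PKCi, Dsg3 made up 99.3% and 99.4% of it. In Rxra cKO, Dsg3 made up 64.5% and 64.7% in FBS and 75.9% and 78.1% in atRA+PKCi, with Dsg1b at 12.8% and 11.6% in the latter. Dsc3 went from 75.3% and 75.9% of the desmocollin pool to 99.9% and 99.95% in wild-type, and from 83.5% and 82.1% to 95.4% and 95.5% in Rxra cKO. The libraries of a group lay within a few percentage points of each other and no test was run on the shares.

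**Figure D3:**
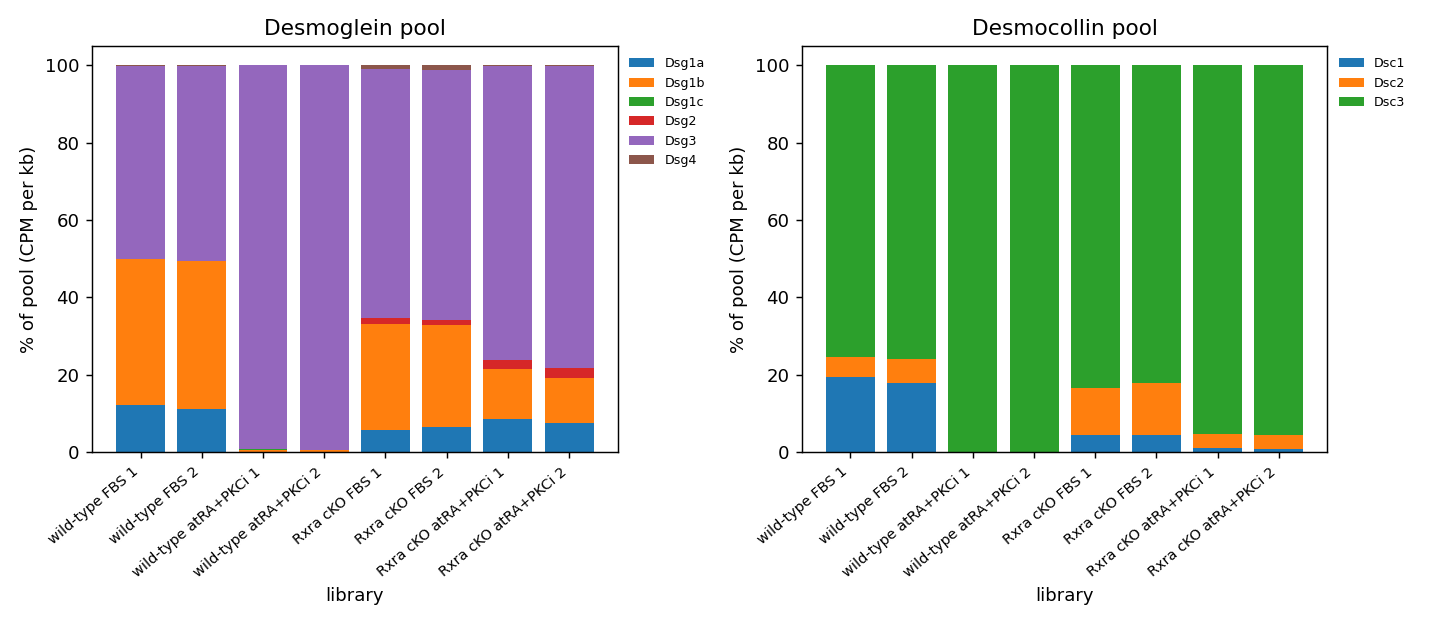
Share of each isoform in the desmoglein and the desmocollin pool, in % of CPM per kilobase of exonic length, for each RNA-seq library. Dsg3 and Dsc3 fill the wild-type atRA+PKCi bars, at over 99% of each pool.

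Desmosome partners, adherens junction genes and differentiation genes were listed for context. Of all genes tested, 26.6% were lower and 27.2% higher in atRA+PKCi in wild-type, and 22.2% and 20.8% in Rxra cKO. The adherens junction counts below did not stand above these wild-type shares. Of 9 partners, 8 were lower in wild-type atRA+PKCi and 0 higher, with a median log2 fold change of -1.68. Jup (3.48-fold), the armadillo protein Pkp1 (3.05-fold) and the desmosome partner Perp (3.21-fold) fell by amounts near that of Dsp. Cdsn, the corneodesmosin of the outer layers, fell by 8.91 on the log2 scale. Pkp4 was at 59.9 and 58.3 CPM in FBS and 60.4 and 61.2 CPM in atRA+PKCi. In Rxra cKO, 5 of the 9 partners were lower. Of 8 adherens junction genes, 1 was higher (Ctnnb1, log2 fold change 0.99) and 2 were lower (Nectin4 and Afdn) in wild-type, while Cdh1, the main epithelial cadherin, was at 269 and 220 CPM in FBS and 263 and 259 in atRA+PKCi. Of 8 differentiation genes, 7 were lower in wild-type, with a median of -4.69. In Rxra cKO 6 of the 8 were lower and 2 higher, the higher being the suprabasal keratins Krt1 (3.70) and Krt10 (1.64).

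In the hashtagged cultures, 449 and 208 barcodes were deposited, and 222 and 78 cells were kept for mouse 1 and mouse 2 after 1 hashtag had been assigned and quality filters applied. Of the FBS hashtag 0 cells were kept, and of the atRA+PKCi hashtag 2 and 1, so the contrast above could not be repeated here. UMIs were summed per mouse and condition where at least 5 cells stood behind the sum. The B-27 sums held 5 and 10 cells and the BMP2/4 sums 113 and 13. Per the study, cultures given Rspo, BMP2/4 or RARi were also treated with atRA and PKCi, which the B-27 culture name does not list. BMP2/4 against B-27 is thus also a contrast of atRA+PKCi, and the parts cannot be told apart.

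In BMP2/4 cultures, 6 of the 8 members tested were lower than in B-27 and 0 were higher, beside 5.28% and 0.431% of 6265 genes (edgeR, called at an adjusted p below 0.01 with a log2 fold change beyond 1 in either direction). Dsg1c and Dsg4 did not pass the filter. Dsc1 stood at 95.3 and 182 CPM in B-27 and 0.812 and 0 CPM in BMP2/4, where 3 and 0 UMIs were counted (95% Poisson interval 0.167 to 2.37 CPM in mouse 1, and 0 to 7.22 CPM in mouse 2). Dsc2 stood at 127 and 159 CPM against 0.812 and 0, and Dsg1b at 280 and 396 against 3.25 and 1.96. The log2 fold changes were -7.27 for Dsc2, -7.24 for Dsc1, -6.60 for Dsg1b, -6.33 for Dsg1a, -4.03 for Dsg2 and -3.12 for Dsc3. In Dsg3 the levels were 2143 and 951 CPM against 261 and 288 (adjusted p = 0.0107, edgeR), and in Dsp 1069 and 1388 CPM against 444 and 474 (adjusted p = 0.149), neither of them past the threshold. The 22 Dsg2 UMIs of B-27 mouse 1 came from 1 cell and the 9 of mouse 2 from 3 cells, and the call of Dsg2 was lost when B-27 mouse 1 or either BMP2/4 sum was left out (adjusted p = 0.126, 0.0374 and 0.0598). That of Dsc3 was lost when either BMP2/4 sum was left out (0.0725 and 0.0406), and Dsg3 was called by DESeq2. Isoform 3 made up 80.4% and 57.7% of desmoglein UMIs in B-27 and 96.4% and 97.4% in BMP2/4, and 80.6% and 67.4% against 97.9% and 100% of desmocollin UMIs. The median log2 fold change of the 8 members was -5.18, beside 0.0088 over all genes. Of 8 desmosome partners tested, 4 were lower, and of 8 adherens junction genes 1 was. The suprabasal markers summed to 4573 and 3164 CPM in B-27 and to 414 and 401 CPM in BMP2/4, and their part in the result was not tested.

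Neither the addition of R-spondin (Rspo) to BMP2/4 nor that of an inhibitor of the retinoic acid receptor (RARi) to both gave a called member by edgeR or by DESeq2, and edgeR called 0 of 6265 genes, or 0%, in either comparison. At an unadjusted p under 0.05, 44 genes and 0 members passed with Rspo, and 232 genes and 2 members passed with RARi. Those 2 were Dsc3 (log2 fold change 1.49, SE 0.536) and Dsg2 (2.41, SE 1.11). Dsp stood at 407 and 472 CPM in Rspo+BMP2/4 and at 1227 and 699 CPM with RARi, which rests on 5 and 21 cells.

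**Figure D4:**
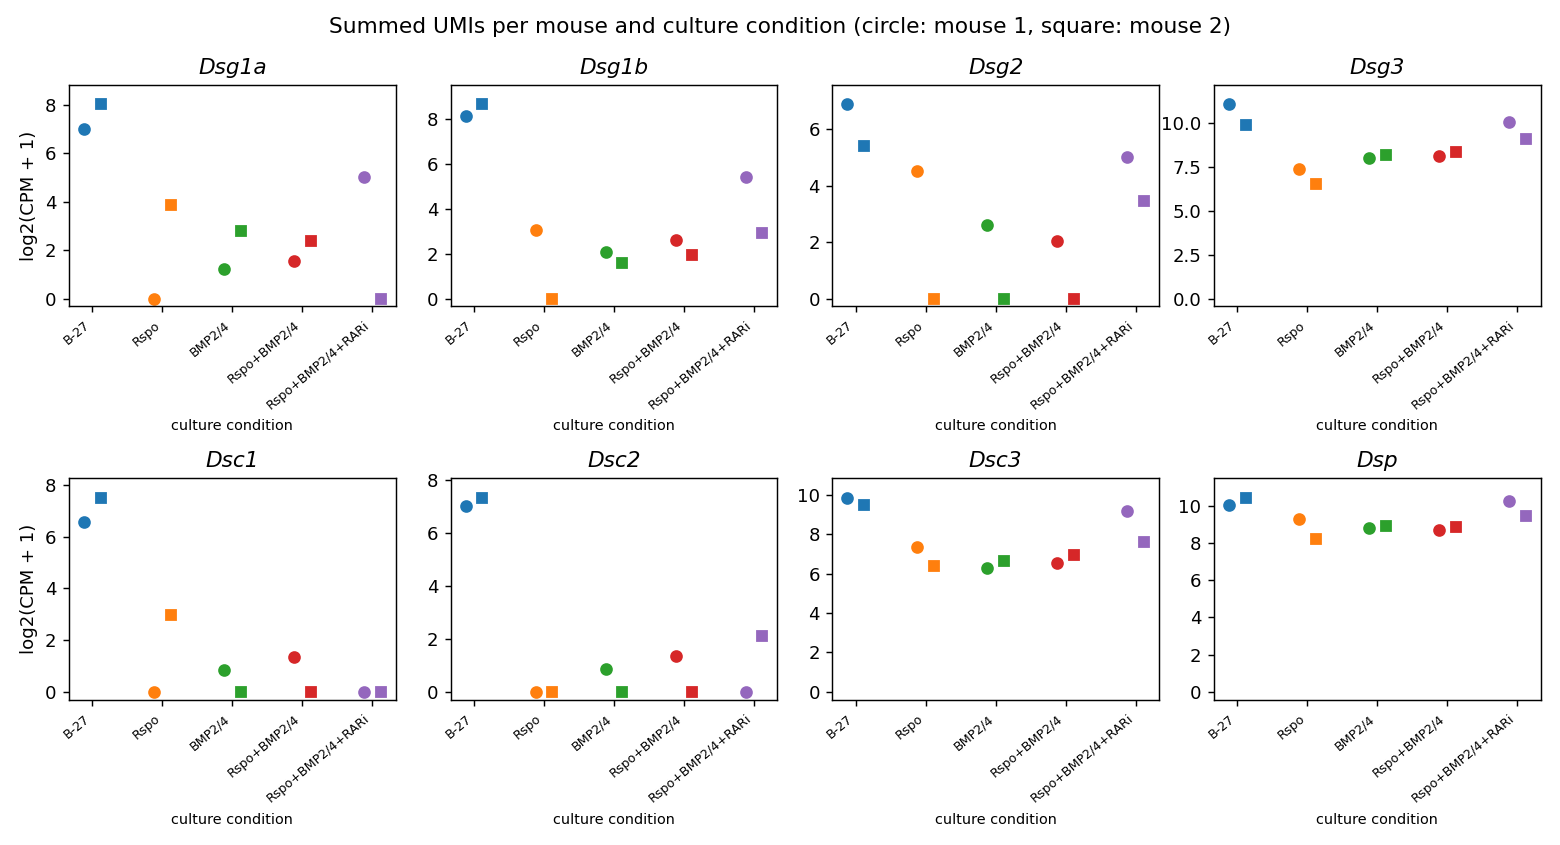
Levels of 8 members in cultured HFSCs, as log2(CPM + 1) of UMIs summed per mouse and culture condition (circles mouse 1, squares mouse 2). Dsc1 and Dsc2 are at 95.3 CPM or more in both B-27 sums and at 6.88 CPM or less in every other sum shown.

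In AnaVI skin, 16521 and 16068 barcodes were deposited, of which 62 sequences occur in both mice, and 26954 cells were kept. They fell into 42 clusters, of which 23 took a name from marker lists. Members and junction genes were left out of the clustering, and levels are UMIs summed per mouse and class as CPM with no test. Of its list, 4 of 10 markers were found in at least 10% of hair shaft cortex and cuticle-like cells, 5 of 7 in suprabasal epidermis-like, 6 of 7 in upper follicle and basal epidermis-like, 7 of 8 in inner root sheath-like and 7 of 7 in outer root sheath-like cells. The study's sort excluded CD140a-positive cells, and 6143 of the cells kept were dermal fibroblast-like. In those cells, which are not epithelial, the members gave 51.4 and 60.3 CPM of Dsp, 25.6 and 34.8 of Dsc3 and 5.86 and 6.85 of Dsg1a. The source of these UMIs was not tested, and member levels in other classes at or below these are read as background. Skeletal muscle-like cells, which were shallower, held more Dsp (see other observations), so this level may be too low for shallow classes.

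Dsg4 was highest in hair shaft cortex and cuticle-like cells, at 149 and 164 CPM, and 62.1% and 67.2% of those cells held a UMI at median depths of 10305 and 11467 UMIs. In dermal fibroblast-like cells 0.853% and 1.01% held one at 10106 and 12148 UMIs. Among named classes the next, hair matrix-like, had 13.0 and 8.59 CPM. Dsg4 made up 59.0% and 57.7% of desmoglein UMIs in hair shaft cells.

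Dsg1a was highest in a cluster led by Cst6 and Krt79 (496 and 487 CPM in 79 and 52 cells). Suprabasal epidermis-like (274 and 348 CPM) and inner root sheath-like cells (158 and 182 CPM) came next, and no neighbours among these 3 overlapped between mice. Dsg1b stood at 24.6 and 31.3 CPM in suprabasal epidermis-like cells. Dsg1a was thus above Dsg1b in skin, whereas Dsg1b was above Dsg1a in wild-type FBS per kilobase (means of 88.6 and 27.3 CPM per kilobase) and in UMIs of both B-27 sums, with the paralog split uncertain in each. Dsc1 stood at 117 and 114 CPM in the Cst6 and Krt79 cluster and at 52.9 and 39.4 CPM in inner root sheath-like cells. In suprabasal epidermis-like cells Dsc1 stood at 8.20 and 11.9 CPM, from 7 and 16 UMIs.

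Dsg3 was highest in upper follicle and basal epidermis-like cells, at 440 and 271 CPM in 84 and 53 cells. The range of a cluster led by Pthlh and Krt6a (293 and 302 CPM) lay inside that. Dsg3 stood at 129 and 180 CPM in medulla-like and at 28.9 and 33.5 CPM in outer root sheath-like cells. Dsg2 was 120 and 135 CPM in outer root sheath-like and 127 and 131 CPM in medulla-like cells, which overlap. Dsg2 made up 71.2% and 68.9% of desmoglein UMIs in outer root sheath-like cells. Dsg2 was thus the leading desmoglein of that class in skin, while wild-type RNA-seq cultures held at most 5 counts of it. That class leaves out the Pthlh and Krt6a cluster, which had Krt14 and Sox9 among its leading genes. An unnamed cluster of 705 cells led by Fgf5 and Ddit4l, which scored highest on the outer root sheath list, is also left out. Dsc3 was 532 and 581 CPM in suprabasal and 231 and 288 CPM in outer root sheath-like cells, and Dsp was 1088 and 1247 CPM in suprabasal, 921 and 941 CPM in upper follicle and basal epidermis-like and 406 and 452 CPM in outer root sheath-like cells. Dsc2 stayed at 25.3 CPM or less and Dsg1c at 1.49 or less in every class.

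Over the 42 clusters, the genes whose log2(CPM + 1) was most like that of a member are given as a description, since clusters share libraries and depth. Dsp was closest to Perp (Pearson r = 0.969), Dsc3 to Dsp (0.953), Dsg2 to Grhl2 (0.954), Dsg3 to Lypd6b (0.913), Dsg1a to Dsg1b (0.895), Dsg4 to Gm49425 (0.853) with Krt35 next (0.848), and Dsc1 to Rbp2 (0.833).

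**Figure D5:**
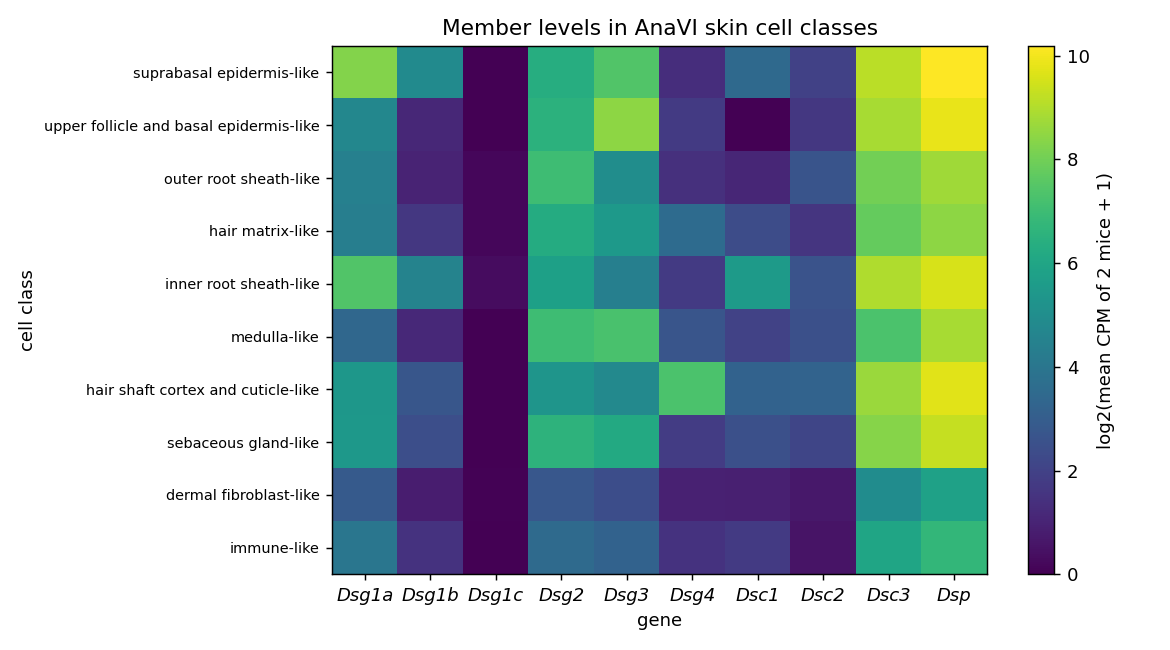
Mean level of each member in 10 classes of AnaVI skin, as log2 of the mean CPM of 2 mice plus 1 (colour), with classes in rows and genes in columns. Dsg4 is brightest in hair shaft cortex and cuticle-like cells, at 149 and 164 CPM, and Dsp is brightest in every row.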

How the data were processed

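The authors deposited estimated counts per gene, which salmon 1.4.0 and tximport made on mm10 per the study's methods, and a table of normalized counts (a signal scaled by size factors) that entered only alternatives. The authors deposited UMI counts as whole numbers from Cell Ranger (7.0.1 per the submitters' processing notes). The stated removal of free RNA and doublets is not part of these values. ATAC-seq, CUT&RUN and separate hashtag libraries were not analysed here. The members and lists were chosen with earlier results of these data known, and named genes are the members, the 3 listed groups, Rxra, marker lists and the nearest genes over skin clusters.

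Estimated counts were rounded and fitted with edgeR 4.0.16 in R 4.3.3 as 4 group means over 8 libraries (TMM, filterByExpr). The labels give cultures of a genotype with the same number to one mouse; deviations of same-numbered libraries correlated at 0.135 (wild-type) and -0.00082 (Rxra cKO), and the block was an alternative. Cell filters were a minimum of 500 genes and 1000 UMIs with a mitochondrial share below 10%. Hashtag calls came from HTODemux in Seurat 5.3.0 (quantile 0.99), and skin was clustered in Python 3.11.15 with scanpy 1.11.5 at resolution 0.8 on 30 components and 15 neighbours. A cluster took a name from at least 3 detected markers and its leading genes, by a scoring rule written with the data in view. Without a listed marker among its 10 leading genes, a cluster could take the name of its best-scoring list. That required all markers of the list to be detected, with further conditions on depth and level. The dermal fibroblast-like clusters and an outer root sheath-like cluster of 909 cells were named in that way. Scrublet marked 0 cells of mouse 2 at its own threshold, so after seeing this that of mouse 1 (0.165) served both and marked 829 and 590 cells. Shares of cells carry counting error only. Both fits were also run on counts simulated with the spread estimated from these data, which cannot test that spread itself. Alternatives were DESeq2 1.42.0, limma 3.58.1 on the normalized table, no filter, a stricter threshold, leaving out each library, the block, other lengths, hashtag, mitochondrial and doublet settings, and resolution 1.5.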

Additional observations from a re-analysis of the deposited data

Results flagged for a closer look

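The medium effect differed between wild-type and Rxra cKO cultures for 7 members by the interaction test of edgeR, on the log2 scale: Dsg1a (-8.52), Dsc1 (-7.32), Dsc2 (-6.95), Dsg1b (-6.04), Dsg4 (-2.40), Dsp (-1.60) and Dsc3 (-0.87). In each of the 7 the difference between media was larger in wild-type. Of all genes tested, the interaction was called below 0 for 13.3% and above 0 for 11.3%. It was called below 0 for 8 of 9 desmosome partners and above 0 for 0. For differentiation genes these were 7 and 1 of 8, and for adherens junction genes 2 and 1 of 8. Groups of 2 libraries were too small for a test of single libraries.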

How the results depend on the processing

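The number of members called under an alternative was 7 to 9 in wild-type against 8, 4 to 7 in Rxra cKO against 6, 5 to 8 for the interaction against 7, 5 to 8 between genotypes in FBS against 7 and 6 to 9 in atRA+PKCi against 8, and 4 to 7 for BMP2/4 against 6, with the lowest at the stricter threshold (adjusted p below 0.01, log2 fold change beyond 1 in either direction) or with a library left out. The replicate block left these at 8, 6 and 7, and at 6 for BMP2/4 against B-27, and changed no call among 60 results. Over all genes, the stricter threshold left 1579 of 4249 lower calls in wild-type and 1041 of 3542 in Rxra cKO. For the interaction it left 694 of 2117. Of higher calls it left 1381 of 4350, 817 of 3319 and 440 of 1807. Members called there were 7, 4 and 5. Between genotypes it left 656 of 3275 lower and 1105 of 3565 higher in FBS, and 675 of 3225 and 1406 of 3670 in atRA+PKCi. For BMP2/4 the block gave 308 lower and 29 higher calls, against 331 and 27. The share of Dsg3 rose in wild-type by 49.3 percentage points, by 38.0 with no length correction and by 46.5 with the longest transcript, and in Rxra cKO by 12.4 and 8.11 with no length correction. That of Dsc3 rose in wild-type by 24.3, 23.3 and 27.7 points and in Rxra cKO by 12.6 and by 14.1 with the longest transcript. The cause was not tested. The highest named skin class stood for 8 of 8 members with per-cell means and for 7 under resolution 1.5, stricter cell filters and doublets kept. Directions turned only for uncalled log2 values. With 1 library or sum left out, Dsg1a in the Rxra cKO medium effect ranged from -0.37 to 0.056 and Dsg1c from -0.25 to 0.71, Dsc3 between genotypes in FBS from -0.16 to 0.017 and Dsg3 in atRA+PKCi from -0.026 to 0.060 (-0.0019 with only the 4 libraries compared). For Rspo+BMP2/4 against BMP2/4 these ranges were -1.07 to 0.76 (Dsg1a), -0.28 to 1.13 (Dsg1b), -4.54 to 3.49 (Dsg2), -2.33 to 2.69 (Dsc1) and -2.33 to 2.69 (Dsc2), and for RARi -4.33 to 2.98 (Dsg1a), -3.63 to 0 (Dsc1) and -3.24 to 3.92 (Dsc2). In the former, Dsg1a was -0.16 by DESeq2 and -0.045 with the 70% hashtag rule, under which Dsg2 was 0.27, and under 20% mitochondrial UMIs Dsc1 was -1.02 and Dsc2 -1.18. Few cells limit these.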

Other observations

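Among skin clusters, 1 led by Adamts16 and Limch1 held 1941 cells of mouse 1 and 105 of mouse 2, and 1 led by Gm32014 and Pgr held 872 and 14. Neither entered the classes described, but other uneven clusters did. A dermal fibroblast-like cluster held 280 cells of mouse 1 and 1959 of mouse 2. An outer root sheath-like cluster held 88 and 346, and a hair matrix-like cluster 80 and 299. Skeletal muscle-like cells, at a median UMI count 0.209 times that of their samples, held 205 and 186 CPM of Dsp. In the Rspo cultures, of 5 and 6 cells, Dsg3 stood at 168 and 89.5 CPM and Dsp at 635 and 296 CPM. In atRA+PKCi cultures of the hashtagged set, of 2 and 1 cells, Dsg3 gave 16 of 16 and 43 of 44 desmoglein UMIs.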
